A study of Mus musculus with 4 samples.

Results

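The 10 genes described here are *Tlr1*, *Tlr2*, *Tlr4*, *Tlr6*, *Tlr7*, *Tlr8*, *Tlr9* and *Tlr13*, which encode Toll-like receptors, *Cd14*, which encodes a co-receptor of lipopolysaccharide, and *Myd88*, which encodes the adaptor these receptors signal through. They were taken by symbol from the 28585 genes measured, and each symbol matched 1 gene. Bulk RNA sequencing was performed on polymorphonuclear myeloid-derived suppressor cells (PMN-MDSCs), neutrophil-like cells that restrain T cells, which were isolated from the spleens of C57BL/6J pups on postnatal day 7. The study's sort for these cells was CD11b+ Ly6C lo/- Ly6G+. The study states that such a sort may hold other polymorphonuclear cells besides PMN-MDSCs. A density gradient, added in some of its assays, is not mentioned for the sequencing. There were 2 libraries from *Dhps* cko pups and 2 from *Dhps* flox pups. *Dhps* encodes deoxyhypusine synthase, the enzyme that starts the hypusine modification of the translation factor eIF5A. Both genotypes carry the floxed *Dhps* allele (*Dhps* fl/fl), and the cko pups also carry Lysm cre, a Cre recombinase expressed from the *Lyz2* locus of myeloid cells, so loss of *Dhps* and presence of Cre cannot be told apart. The study describes the genotypes as littermates. Which libraries share a litter, the number of pups behind a library and their sexes are not given in the sources used here, and p-values therefore measure the spread between these libraries, which may be technical. The study used both sexes.

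Toll-like receptors are sentinels for molecules that microbes carry. At the cell surface, TLR2 pairs with TLR1 or TLR6 to detect bacterial lipoproteins, TLR4 with its partner MD-2 detects lipopolysaccharide delivered by CD14, and TLR5 detects flagellin. In endosomes, TLR7 and TLR8 sense RNA, TLR9 senses unmethylated DNA, and TLR13, which humans lack, senses bacterial ribosomal RNA. All of them signal through MyD88 to NF-κB and interferon regulatory factors, whereas TLR3 uses another adaptor, and neutrophils and macrophages are among the cells that use these receptors against bacteria.

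The receptors can be so alike in sequence that short reads cannot always be assigned to 1 gene, and the pair *Tlr1* and *Tlr6* is shown for that reason. They are neighbours on chromosome 5 of mm10 (GRCm38), 18467 bases apart in GENCODE M21, *Tlr1* from 64924679 to 64933563 and *Tlr6* from 64952031 to 64960097, both on the minus strand. Their transcripts share a run of 229 identical bases, which lies in coding exon at chr5:64925537-64925765 in *Tlr1* and at chr5:64953828-64954056 in *Tlr6*. It is printed 5′ to 3′ from the *Tlr1* transcript, with the shared bases in capitals and 15 flanking bases in lower case on each side.
Tlr1: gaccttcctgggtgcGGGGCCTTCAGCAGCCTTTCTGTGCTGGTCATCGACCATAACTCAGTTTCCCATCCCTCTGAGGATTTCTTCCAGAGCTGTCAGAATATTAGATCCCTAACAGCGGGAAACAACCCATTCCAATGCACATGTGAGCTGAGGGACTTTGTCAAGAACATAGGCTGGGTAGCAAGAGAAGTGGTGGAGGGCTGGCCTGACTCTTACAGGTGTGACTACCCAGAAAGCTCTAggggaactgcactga
Of all 50-base stretches of the *Tlr1* transcripts, 15.4% also occur in another gene, foremost *Tlr6*, and for *Tlr6* the share was 12.3%. How the authors' tools split such reads is not given in the sources used here, so the separate values of *Tlr1* and *Tlr6* are uncertain. The same measure was 0.018% for *Tlr4* and 0% for the other 7 genes, including *Tlr7* and *Tlr8*, which also lie next to each other, 40599 bases apart on the X chromosome.

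The upstream sequences of *Tlr13* and *Myd88* are shown because these were the most abundant receptor and the most abundant of all 10 genes. RefSeq (GRCm38.p6) held promoter entries for 7 of the 10 genes, and no entry was matched for *Tlr4*, *Tlr7* and *Cd14*. The 250 bases before each start were searched on both strands for the letters GAGGAA, the core of sites of the myeloid factor PU.1, for GAAA, any 2 bases and GAAA, a form of the sites of interferon regulatory factors, and for GGGA, any base and TTTCC, a form of NF-κB sites. Bases inside a GENCODE M21 exon of the gene are not printed, and capitals mark the letters that matched. The RefSeq start of *Myd88* lies inside the longer GENCODE M21 gene, so its stretch is intronic there.
Tlr13, chrX:106143025-106143203, plus strand: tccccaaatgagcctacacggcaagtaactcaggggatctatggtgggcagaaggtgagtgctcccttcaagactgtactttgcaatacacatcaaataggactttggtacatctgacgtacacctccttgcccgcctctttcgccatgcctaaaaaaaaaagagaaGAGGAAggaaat
Myd88, chr9:119340042-119340268, minus strand: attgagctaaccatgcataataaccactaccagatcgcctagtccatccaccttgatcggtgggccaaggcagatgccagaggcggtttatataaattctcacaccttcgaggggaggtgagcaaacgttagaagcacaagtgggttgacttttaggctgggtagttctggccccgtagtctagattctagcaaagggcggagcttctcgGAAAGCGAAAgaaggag
The PU.1 core was found for *Tlr1*, *Tlr8*, *Tlr9* and *Tlr13*, 4 of the 7 genes and 4 of their 9 promoter entries, and 23.3% of all 32841 entries held it. The interferon regulatory factor letters were found for *Tlr6* and *Myd88*, 2 of the 7 genes and 2 of the 9 entries, against 2.98% of all entries. The NF-κB letters were found for 0 of the 9 entries, against 0.356% of all entries. A match of letters is a description and not a bound site.

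The sorted neonatal cells carried transcripts of receptors for lipoproteins, lipopolysaccharide, flagellin and nucleic acids. Levels are given in FPKM, which divides the fragments of a gene by its length and by library depth, so that different genes can be set side by side, and the values of a genotype are in the order replicate 1, replicate 2. Each of the 10 genes was at or above 1 FPKM in all 4 libraries, and 5 of them were at or above 10 FPKM in all 4. *Myd88* had the highest mean level over the 4 libraries at 39.9 FPKM, above 96.6% of the 26908 genes detected. *Tlr13* followed at a mean of 28.9 FPKM and *Tlr2* at 18.8 FPKM. *Cd14* was at a mean of 14.4 FPKM, *Tlr8* at 11.6, *Tlr7* at 9.49 and *Tlr4* at 6.15. *Tlr6* at 2.86 FPKM, *Tlr9* at 1.86 and *Tlr1* at 1.86 were the lowest of the 10. The ranges of neighbouring genes in this order were separate except between *Cd14* and *Tlr8*, and between *Tlr9* and *Tlr1*, so the order within these pairs is not larger than the spread between libraries.

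**Figure D1:**
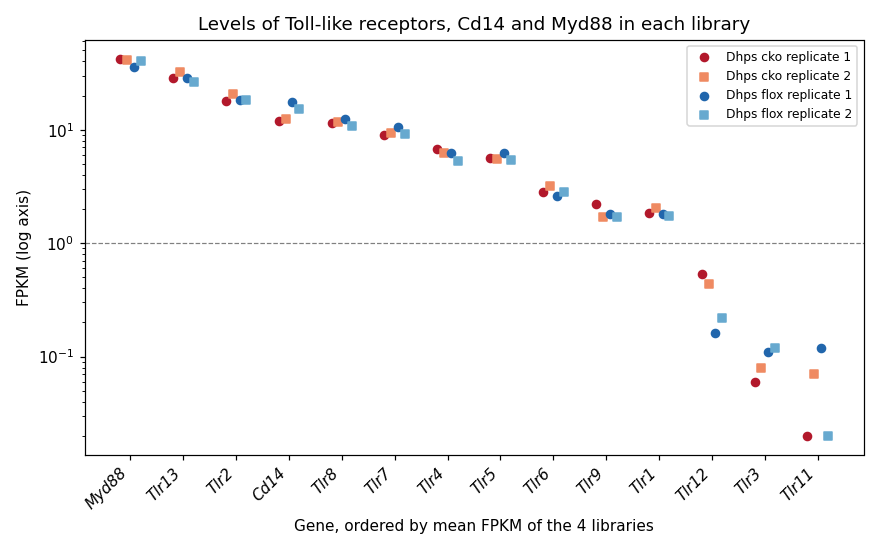
FPKM on a log axis of the 12 mouse Toll-like receptor genes, *Cd14* and *Myd88*, ordered by their mean, with a point for each of the 2 *Dhps* cko and 2 *Dhps* flox libraries and a dashed line at 1 FPKM. The 10 genes described here and *Tlr5* lie above the line in every library, whereas *Tlr12*, *Tlr3* and *Tlr11* lie below it.

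Among the 12 receptor genes of the mouse, the 4 endosomal sensors among the 10 genes held most of the transcripts. *Tlr13* alone made up between 32.0% and 34.6% of their summed FPKM in a library, and *Tlr2*, the most abundant surface receptor, between 20.6% and 22.3%. *Tlr8* made up between 12.5% and 13.99% and *Tlr7* between 9.99% and 11.8%. The summed level of *Tlr7*, *Tlr8*, *Tlr9* and *Tlr13* ran from 47.79 to 54.79 FPKM, and that of the surface receptors *Tlr1*, *Tlr2*, *Tlr4*, *Tlr5* and *Tlr6* from 33.48 to 37.7 FPKM. *Tlr5*, the flagellin receptor and no member of the 10, was at 5.64 and 5.48 FPKM in *Dhps* cko and at 6.28 and 5.44 FPKM in *Dhps* flox, close to the level of *Tlr4*. *Tlr3*, the receptor of double-stranded RNA, was at 0.06 and 0.08 FPKM in *Dhps* cko and at 0.11 and 0.12 FPKM in *Dhps* flox. *Tlr11*, a sensor of profilin of parasites, was between 0.02 and 0.12 FPKM. Both were below a mean of 0.1 FPKM and were not tested.

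The steps between the lowest FPKM values of short single-exon genes gave approximate depths of 29850000 to 32150000 fragments per library. At these depths and with GENCODE M21 exon lengths, *Tlr1* rested on about 173 to 211 fragments per library, *Cd14* on about 669 to 951 and *Tlr13* on about 3365 to 4327, whereas *Tlr11* rested on about 2 to 12. These numbers are approximate, and the differences between *Tlr11* libraries cannot be read at this depth.

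The sorted cells were checked against markers of neutrophils and of other cells of the spleen, which do not separate PMN-MDSCs from neutrophils. All 12 neutrophil markers were at or above 1 FPKM in every library, with sums of 77526 and 79945 FPKM in *Dhps* cko and 77509 and 73002 FPKM in *Dhps* flox, and *Ly6g*, the antigen of the sort, was at 222 and 242 FPKM in *Dhps* cko and 195 and 185 FPKM in *Dhps* flox. Transcripts of other cells were also present, and none of their listed markers was at 0 in all libraries. The summed FPKM of 12 monocyte and macrophage markers was 371.88 and 369.03 in *Dhps* cko and 309.74 and 305.38 in *Dhps* flox, with 7 of the 12 higher in both *Dhps* cko libraries, against 20% of all genes, and 5 of the 12 overlapping. *Ly6c2* was the largest part of this sum, at 192.22 and 183.75 FPKM against 157.95 and 160.82 FPKM. Of 8 B cell markers, 7 were higher in both *Dhps* cko libraries, and the sum of the 8 was 65.43 and 67.97 FPKM against 41.51 and 51.06 FPKM. *Ighm* was the largest part of it, at 40.56 and 42.91 FPKM against 27.03 and 31.99 FPKM. The dendritic cell markers summed to 8.32 and 8.23 FPKM in *Dhps* cko and to 5.24 and 6.88 FPKM in *Dhps* flox, with 4 of the 6 tested higher in both *Dhps* cko libraries. Their members *Flt3*, *Siglech*, *Xcr1* and *Zbtb46* were at or below 0.20 FPKM in every library. The 8 T cell markers summed to 11.7 and 10.67 FPKM against 9.38 and 6.87 FPKM, with 4 of the 8 higher in both *Dhps* cko libraries, as were 4 of the 12 neutrophil markers. The 8 erythroid markers, at 456.73 and 546.1 FPKM against 372.39 and 558.77 FPKM, overlapped. Macrophages, dendritic cells and B cells also express Toll-like receptors, and the part of these cells in the levels above was not tested. In bulk samples, fewer cells of a type and less RNA per cell cannot be told apart. The targeted gene *Dhps* was at 2.38 and 2.59 FPKM in *Dhps* cko and at 3.57 and 3.11 FPKM in *Dhps* flox. Its mean in *Dhps* cko was 74.4% of that in *Dhps* flox, so most of the transcript was still measured. The log2 fold change of *Dhps* was -0.41, with an adjusted p of 0.63 (limma). Its unadjusted p was 0.026, and 0.051 with the replicate block. *Lyz2*, the lysozyme gene that carries the Cre insertion, was at 2245 and 2380 FPKM against 6874 and 6544 FPKM.

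Whether the receptors differed between *Dhps* cko and *Dhps* flox was addressed with limma on log2(FPKM + 0.1) over 17948 genes. Of the 10 genes, 0 had an adjusted p under 0.05 (limma, Benjamini-Hochberg adjustment over all genes tested), a threshold that 0.00557% of all genes passed. An unadjusted p under 0.05 was found for 1 of the 10, *Cd14*, which was lower in *Dhps* cko, against 7% of all genes in either direction and 2.28% in that direction. The 2 libraries of a genotype did not overlap those of the other for 4 of the 10 genes, against 36% of all genes. They were *Tlr1*, *Tlr13* and *Myd88*, 3 genes higher in *Dhps* cko against 20% of all genes, and *Cd14*, 1 gene lower against 16%. The 10 genes had a median log2 fold change of 0.12, and all genes tested 0.01. With 2 libraries a genotype, the smallest p an exact permutation test allows is 0.33.

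*Cd14* differed most between genotypes of the 10 genes. It was at 12.02 and 12.50 FPKM in the *Dhps* cko libraries, against 17.62 and 15.27 FPKM in the *Dhps* flox libraries. Both *Dhps* cko libraries were below both *Dhps* flox libraries, and the gap between the genotypes was wider than the spread within either. The mean was 12.3 ± 0.34 FPKM (SD, n = 2) in *Dhps* cko and 16.4 ± 1.7 FPKM (SD, n = 2) in *Dhps* flox, so that the former was 74.6% of the latter. The log2 fold change was -0.42 (standard error 0.092, 95% interval -0.65 to -0.18, adjusted p = 0.51 from limma), which did not pass the threshold over all genes. The unadjusted p of *Cd14* was 0.0063, and it was 0.082 without *Dhps* cko replicate 1 and 0.063 without *Dhps* cko replicate 2, fits in which the lone library is assumed to vary like the other group. The log2 fold change stayed between -0.52 and -0.31 when any library was left out. *Cd14* lies on chromosome 18 from 36725067 to 36726798.

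*Cd14* is known to be induced in activated myeloid cells, and genes of the immediate-early response were compared in the same libraries. Of 13 immediate-early genes, 8 were lower in both *Dhps* cko libraries and 2 were higher in both, against 16% and 20% of all genes. An unadjusted p under 0.05 was found for 6 of the 13 as lower and for 2, *Egr3* and *Ier3*, as higher, against 2.28% and 4.72% of all genes, and 0 had an adjusted p under 0.05 (limma). *Egr3* was low, at 0.39 and 0.44 FPKM in *Dhps* cko and 0.17 and 0.22 FPKM in *Dhps* flox. *Ier3* was at 16.02 and 15.12 FPKM against 10.54 and 12.48 FPKM, and the 6 lower genes were at or above 4.62 FPKM in every library. Without either *Dhps* cko library the unadjusted calls of *Egr3*, *Ier3* and *Jun* were lost, with p between 0.072 and 0.14, and that of *Fos* was lost without *Dhps* cko replicate 2, at 0.056. The call of *Egr3* was also lost without *Dhps* flox replicate 1 (0.077), with the replicate block (0.080), on the TPM scale (0.058), with median-of-ratios size factors (0.053) and with quantile normalization (0.057). The lower calls of *Fosb*, *Jund*, *Egr1* and *Dusp1* were kept under every alternative run. The summed FPKM of the 13 was 540.32 and 534.72 in *Dhps* cko and 676.22 and 611.97 in *Dhps* flox. Over these 13 the median log2 difference was -0.41. The part of this response in the level of *Cd14* was not tested.

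**Figure D2:**
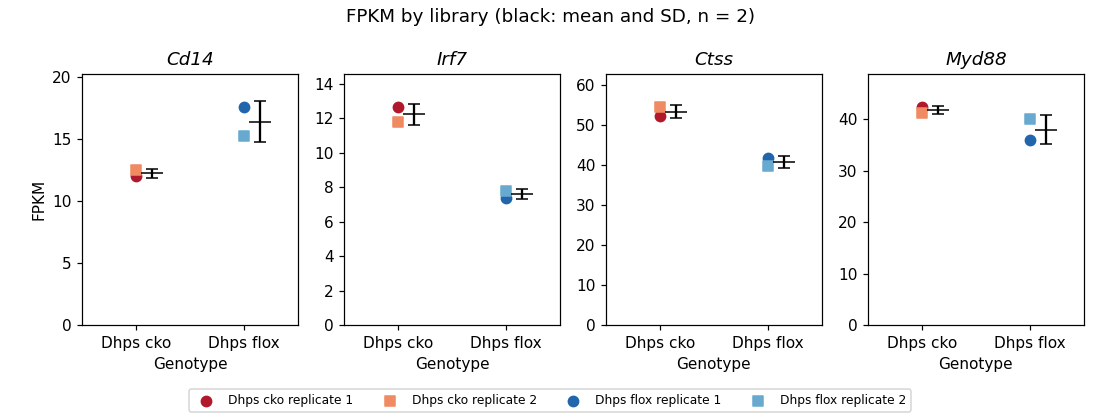
FPKM of *Cd14*, *Irf7*, *Ctss* and *Myd88* in each library, with the genotype on the horizontal axis, points for libraries and black bars for the mean and SD of 2 libraries. *Cd14* is lower in both *Dhps* cko libraries (12.02 and 12.50 FPKM) than in both *Dhps* flox libraries (17.62 and 15.27 FPKM), and the other 3 genes are higher in both.

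*Tlr4*, the receptor to which CD14 passes lipopolysaccharide, had a log2 fold change of the opposite sign to that of *Cd14*. It was at 6.78 and 6.27 FPKM in *Dhps* cko and at 6.27 and 5.27 FPKM in *Dhps* flox, and the groups met at 6.27 FPKM. The gene lies on chromosome 4 from 66827584 to 66930284. Its log2 fold change was 0.18 (standard error 0.12, 95% interval -0.12 to 0.48, adjusted p = 0.81 from limma). It was 0.30 without *Dhps* flox replicate 1 and 0.06 without *Dhps* flox replicate 2. *Ly96*, which encodes MD-2, the partner that completes the receptor, was at 2.79 and 2.08 FPKM against 2.01 and 1.45 FPKM, with a log2 fold change of 0.47 (95% interval -0.12 to 1.06). Over 14 alternative settings this value of *Ly96* ran from 0.25 to 0.70. *Lbp*, the lipopolysaccharide-binding protein, had the highest level of the co-receptor and ligand carrier genes, at 54.35 and 52.99 FPKM in *Dhps* cko and 53.43 and 57.42 FPKM in *Dhps* flox.

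All 3 lipoprotein receptors had a log2 fold change above 0, which for *Tlr2* was -0.03 without *Dhps* cko replicate 2, and none passed the test. Without that library *Tlr1* and *Tlr6* were both at 0.06, and without *Dhps* cko replicate 1 they were at 0.18 and 0.22. *Tlr2*, on chromosome 3 from 83836272 to 83841767, was at 17.90 and 20.76 FPKM in *Dhps* cko and at 18.39 and 18.20 FPKM in *Dhps* flox, so that both *Dhps* flox values lay between those of *Dhps* cko. Its log2 fold change was 0.08 (95% interval -0.16 to 0.31). *Tlr6* was at 2.83 and 3.17 FPKM against 2.59 and 2.84 FPKM, with groups that overlapped and an interval of -0.19 to 0.47. *Tlr1* was at 1.85 and 2.02 FPKM in *Dhps* cko and 1.82 and 1.73 FPKM in *Dhps* flox. The lower *Dhps* cko value of *Tlr1* exceeded the higher *Dhps* flox value by less than the replicates of *Dhps* cko differed, and its interval ran from -0.24 to 0.48. With the reads that *Tlr1* and *Tlr6* may exchange in view, the summed level of both was 4.68 and 5.19 FPKM in *Dhps* cko and 4.41 and 4.57 FPKM in *Dhps* flox.

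Of the 4 endosomal receptors, 2 had a log2 fold change above 0 and 2 below, and none passed the test. The sign turned for *Tlr7* and *Tlr8* without *Dhps* flox replicate 1, and for *Tlr8* and *Tlr9* without *Dhps* cko replicate 1. *Tlr13* was at 28.57 and 32.17 FPKM in *Dhps* cko and at 28.48 and 26.19 FPKM in *Dhps* flox, separated by only the gap between 28.57 and 28.48. Its log2 fold change was 0.15 (standard error 0.086, 95% interval -0.07 to 0.37, adjusted p = 0.78 from limma). It was 0.24 without *Dhps* cko replicate 1 and 0.06 without *Dhps* cko replicate 2. *Tlr8* was at 11.41 and 11.63 FPKM against 12.45 and 10.76 FPKM, with the *Dhps* cko values inside the range of *Dhps* flox and an interval of -0.25 to 0.23 for its log2 fold change of -0.01. *Tlr7* was at 9.03 and 9.30 FPKM against 10.48 and 9.13 FPKM, with an interval of -0.34 to 0.15. *Tlr9* was at 2.23 and 1.69 FPKM in *Dhps* cko and 1.82 and 1.71 FPKM in *Dhps* flox. The *Dhps* cko replicates of *Tlr9* differed 1.32-fold, the widest spread between replicates of the 10 genes, and its interval ran from -0.34 to 0.60. For each of these 4 genes the interval held differences in both directions.

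*Tlr7* (167304929 to 167330558), *Tlr8* (167242696 to 167264329) and *Tlr13* (106143204 to 106160493) lie on the X chromosome, and *Tlr9* on chromosome 9 (106222598 to 106226883). *Tlr7* is known to escape X inactivation in some human immune cells. Sex-linked transcripts differed between these libraries. *Xist*, the transcript that silences an X chromosome in females, was at 27.54 and 20.27 FPKM in *Dhps* cko and at 16.25 and 17.17 FPKM in *Dhps* flox. The summed FPKM of 4 genes of the Y chromosome was 7.07 and 8.07 against 17.64 and 15.62. All 4 were lower in both *Dhps* cko libraries, against 16% of all genes, with a median log2 fold change of -1.08. Of these, 0 had an adjusted p under 0.05 (limma). The summed level of the 3 X-linked receptors was 49.01 and 53.1 FPKM in *Dhps* cko and 51.41 and 46.08 FPKM in *Dhps* flox, and overlapped. Sex-linked transcripts thus differed with genotype, so the sexes of the pups and genotype cannot be told apart. This holds for every genotype comparison here, including that of *Cd14*. The part of the sex of the pups in these levels was not tested.

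*Myd88*, on chromosome 9 from 119335934 to 119341411, was slightly higher in *Dhps* cko without passing the test. It was at 42.37 and 41.28 FPKM in *Dhps* cko and at 36.02 and 39.94 FPKM in *Dhps* flox. The groups did not overlap, but the *Dhps* flox replicates lay further from each other than the nearest libraries of the 2 genotypes. Its log2 fold change was 0.14 (standard error 0.071, 95% interval -0.04 to 0.32, adjusted p = 0.77 from limma). It was 0.07 without *Dhps* flox replicate 1 and 0.21 without *Dhps* flox replicate 2. Of the exon bases of *Myd88*, 11.3% overlap *Acaa1a* on the opposite strand, and strand use in counting is not stated. *Acaa1a*, a gene of peroxisomal fatty acid oxidation, was at 7.38 and 8.51 FPKM against 7.38 and 7.89 FPKM, well below *Myd88*. Without *Dhps* flox replicate 2 the unadjusted p of *Myd88* was 0.030, against 0.11 with all libraries. The genes whose levels over the 4 libraries followed *Myd88* most closely were *Agpat1*, *Emc6* and *Gabbr1*, at root mean square distances of 0.0059, 0.0062 and 0.0069 on the centred log2 scale among 10628 genes. With 4 libraries, such likeness is a description only.

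**Figure D3:**
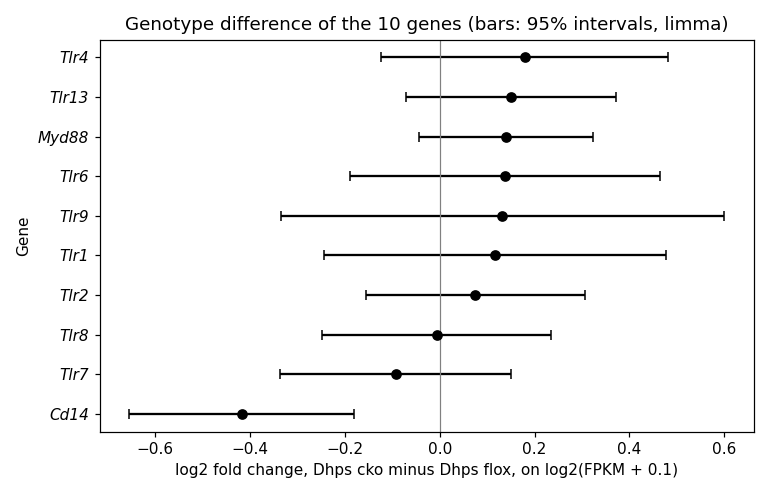
Log2 fold change of each of the 10 genes, *Dhps* cko minus *Dhps* flox, on the log2(FPKM + 0.1) scale, with points for the estimate and bars for 95% intervals from limma without adjustment. The interval of *Cd14* (-0.65 to -0.18) lies below 0 and those of the other 9 genes include 0.

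*Tlr12*, a receptor of low level that works with TLR11 in other cells, had the largest log2 fold change of the 10 receptor genes tested. It was at 0.53 and 0.44 FPKM in *Dhps* cko and at 0.16 and 0.22 FPKM in *Dhps* flox, about 98 fragments against about 37 over the 2 libraries of each genotype. Both *Dhps* cko libraries were above both *Dhps* flox libraries. The log2 fold change of *Tlr12* was 1.02, with a standard error of 0.31 and an adjusted p of 0.63 (limma). With a pseudocount of 1 in place of 0.1 it was 0.32. Its unadjusted p of 0.023 was 0.080 without *Dhps* cko replicate 1, 0.051 without *Dhps* cko replicate 2 and 0.057 without *Dhps* flox replicate 1.

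The other genes of the pathway were divided between both directions, with log2 fold changes from -0.21 for *Tnfaip3*, which encodes the inhibitor A20, to 0.68 for *Irf7*. Of 46 genes listed for co-receptors, trafficking, adaptors, kinases, interferon regulatory factors, negative regulators and IL-1 family receptors, 45 were tested, and *Sarm1*, a regulator mostly of neurons, was listed at 0 in every library. Of the 45, 22 had a log2 fold change above 0 and 23 below, and 0 had an adjusted p under 0.05 (limma). An unadjusted p under 0.05 was found for 5 of the 45 as higher in *Dhps* cko, against 4.72% of all genes, and for 0 as lower.

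The endosomal processing genes held 3 of these 5. *Ctss*, the cysteine protease cathepsin S, was at 52.14 and 54.44 FPKM in *Dhps* cko and at 41.69 and 39.67 FPKM in *Dhps* flox, with a log2 fold change of 0.39 (standard error 0.059, adjusted p = 0.41 from limma). *Lgmn*, which encodes the asparagine endopeptidase legumain, was at 20.58 and 22.25 FPKM against 16.33 and 17.24 FPKM, a log2 fold change of 0.35. Both proteases can cleave endosomal receptors, and both were higher in each *Dhps* cko library than in each *Dhps* flox library. *Slc15a3*, a lysosomal transporter of histidine and peptides, was at 22.70 and 24.28 FPKM against 19.07 and 20.12 FPKM, a log2 fold change of 0.26. Its unadjusted p of 0.013 was 0.085 without *Dhps* cko replicate 2 and 0.071 without *Dhps* flox replicate 1, and it was 0.076 with no mean-variance trend in the variances. *Unc93b1*, the chaperone that carries endosomal receptors out of the endoplasmic reticulum, was at 61.27 and 60.07 FPKM against 53.69 and 59.63 FPKM, with an interval of -0.08 to 0.28 and an unadjusted p of 0.21, which was 0.038 without *Dhps* flox replicate 2. *Hsp90b1*, the folding chaperone of most Toll-like receptors, had the highest level of this group, at 71.52 and 79.41 FPKM in *Dhps* cko and 77.27 and 69.45 FPKM in *Dhps* flox, and overlapped. Macrophages and B cells also express the endosomal proteases, and the summed levels of their markers were higher in the same libraries. Of the 12 monocyte and macrophage markers, 7 were higher in both *Dhps* cko libraries, against 20% of all genes, and over the 12 the log2 fold change had a median of 0.18, against 0.01 over all genes. It ran from -0.01 for *Spic*, a factor of red pulp macrophages, to 0.63 for the complement gene *C1qb*. Of the 8 B cell markers, 7 were higher in both, and their median was 0.68. The part of these cells in the levels of *Ctss*, *Lgmn* and *Slc15a3* was not tested.

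The interferon regulatory factors held the other 2. *Irf7*, the factor that TLR7 and TLR9 activate through MyD88 and that interferon itself induces, was at 12.65 and 11.79 FPKM in *Dhps* cko and at 7.40 and 7.81 FPKM in *Dhps* flox. The mean in *Dhps* cko was 161% of that in *Dhps* flox, and the spread within each genotype was far narrower than the gap. Its log2 fold change was 0.68 (standard error 0.080, 95% interval 0.47 to 0.88, adjusted p = 0.35 from limma), which did not pass the threshold over all genes. *Irf3*, which acts downstream of TLR3 and TLR4, was at 10.24 and 10.21 FPKM against 8.77 and 8.89 FPKM, a log2 fold change of 0.21. The unadjusted p of *Irf3* was 0.031, and it was 0.082 without *Dhps* cko replicate 1, 0.080 without *Dhps* cko replicate 2 and 0.054 without *Dhps* flox replicate 1. It was also 0.082 with the replicate block, 0.076 on the TPM scale and 0.096 with no mean-variance trend. *Irf5*, the third of the group, was at 7.65 and 6.84 FPKM against 6.86 and 7.74 FPKM and overlapped. B cells and dendritic cells also express these factors, and their markers had median log2 fold changes of 0.68 and 0.47, with 7 of 8 and 4 of 6 higher in both *Dhps* cko libraries, against 20% of all genes. Of these 4 dendritic cell markers, *Flt3* and *Siglech* were at or below 0.20 FPKM in every library. The others, *Itgax* and *Bst2*, were between 1.85 and 3.72 FPKM. The part of these cells in the levels of *Irf7* and *Irf3* was not tested.

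The signalling genes downstream of MyD88 were 14 genes of kinases, their adaptor or regulatory subunits and ubiquitin ligases. Of them, 11 had a log2 fold change below 0, against 47.8% of all genes. The median of the 14 was -0.05, and 0 had an unadjusted p under 0.05 (limma). The highest of them, *Tab2*, an adaptor of the kinase TAK1, was at 35.78 and 39.16 FPKM against 39.43 and 36.20 FPKM and overlapped. The other adaptors were led by *Pik3ap1*, which links Toll-like receptors to PI3-kinase, at 35.45 and 35.56 FPKM in *Dhps* cko and 36.10 and 36.09 FPKM in *Dhps* flox. Of the negative regulators, *Irak3*, a brake on MyD88 signalling, had the highest level, at 33.05 and 32.39 FPKM against 28.84 and 31.78 FPKM. *Il18rap*, a subunit of the IL-18 receptor and the highest of the IL-1 family receptors that also use MyD88, was at 68.01 and 67.53 FPKM against 70.94 and 69.82 FPKM. With all libraries, *Pik3ap1*, *Irak3* and *Il18rap* were separated between the genotypes by differences of 0.11 or less on the log2 scale. None had an unadjusted p under 0.05 with all libraries (limma). The log2 fold change of *Irak3* was 0.18 without *Dhps* flox replicate 2 and 0.04 without *Dhps* flox replicate 1.

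**Figure D4:**
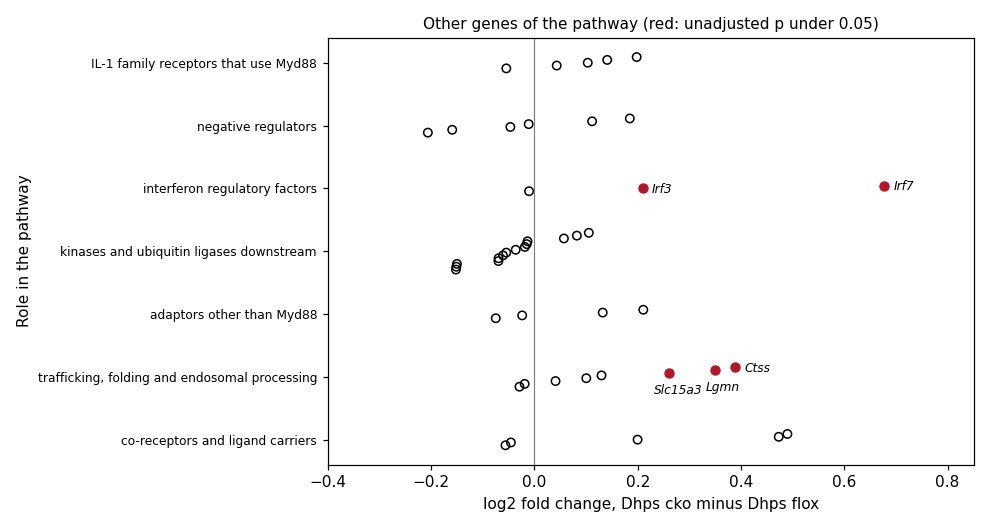
Log2 fold change, *Dhps* cko minus *Dhps* flox, of the 45 tested pathway genes in 7 roles, with a point for each gene and red points for the 5 with an unadjusted p under 0.05. The red points (*Irf7* at 0.68, *Ctss* at 0.39, *Lgmn* at 0.35, *Slc15a3* at 0.26 and *Irf3* at 0.21) all lie above 0. Genes of the group of kinases, their subunits and ubiquitin ligases lie mostly below 0.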

How the data were processed

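RNA of sorted PMN-MDSCs was sequenced in 2 *Dhps* cko and 2 *Dhps* flox libraries. The authors trimmed reads with Cutadapt 1.9, aligned them with HISAT2 2.2.1 to mm10 and deposited FPKM per gene from StringTie 2.1.6. The annotation, strand setting and treatment of multiply mapped reads are not given in the sources used here. FPKM corrects for length and depth but keeps no counts, so no count test was run and depth was approximated from the steps between low values.

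Genes averaging 0.1 FPKM or more were compared two-sided with limma 3.58.1 (R 4.3.3, mean-variance trend) on log2(FPKM + 0.1), a scale that understates the change of low genes, with Benjamini-Hochberg adjustment over all genes tested. The code was tested on simulated data. GENCODE M21 gave positions and exon lengths for 28511 of 28585 identifiers. The 10 genes were set by symbol and the lists by known roles or cell types, all with earlier results of these data known. Named beside the 10 were all Toll-like receptors, pathway genes with an unadjusted p under 0.05, the most abundant gene of each pathway group and the 3 genes nearest *Myd88*. *Ly96*, *Tnfaip3*, *Unc93b1*, *Irf5*, *Acaa1a* and the genes named from the marker and immediate-early lists were added after their values were seen. Replicate numbers were taken from the labels, which do not say what they pair. Alternatives changed the pseudocount, filter, scaling, variance model, replicate block and libraries.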

Additional observations from a re-analysis of the deposited data

How the results depend on the processing

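Under all 14 alternatives 0 of the 10 genes had an adjusted p under 0.05, and *Cd14* stayed lower, with log2 fold changes from -0.52 to -0.31 and adjusted p from 0.34 to 0.95 (limma). Log2 fold changes were recomputed for 39 named genes, and 17 of these 544 values changed sign. Without 1 library each, the log2 fold change ran for *Tlr2* from -0.031 to 0.18, for *Tlr7* from -0.19 to 0.0053, for *Tlr8* from -0.11 to 0.10, for *Tlr9* from -0.059 to 0.32, for *Tlr5* from -0.17 to 0.031, for *Lbp* from -0.10 to 0.0063, for *Tab2* from -0.078 to 0.052, for *Hsp90b1* from -0.036 to 0.12, for *Irf5* from -0.096 to 0.075 and for *Spic* from -0.15 to 0.13. With quantile normalization *Hsp90b1* was at -0.013 and *Irf5* at 0.00037. The cause was not tested.

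The count of all genes with an adjusted p under 0.05 was 1. It was 0 with a pseudocount of 0.01 and with no filter, 4 with a mean of at least 1 FPKM, 2 on the TPM scale, with quantile normalization and with robust variances, and between 0 and 0 without 1 library. The count at an unadjusted p under 0.05 was 1257, against 819 with a mean of at least 1 FPKM, where fewer genes are tested, and 746 to 1608 without 1 library. Among the 10 genes this count was 1, and 0 to 2 without 1 library: 0 without either *Dhps* cko library, and 2, *Cd14* and *Myd88*, without *Dhps* flox replicate 2. The genes whose genotypes did not overlap numbered 4, against 2 with median-of-ratios size factors and 6 to 8 without 1 library, where separation is easier by construction. Their median log2 fold change of 0.12 was 0.087 with a pseudocount of 1 and 0.058 to 0.12 without 1 library. With a threshold of 10 in place of 1 FPKM, 5 of the 10 passed in every library. The pathway genes and other receptors with an unadjusted p under 0.05 numbered 6, and 3 to 8 without 1 library.

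With the replicate block, 0 of all genes had an adjusted p under 0.05, and *Cd14* had an adjusted p of 0.73 (limma). The replicate numbers share no litter or day in the labels, and deviations of same-numbered libraries had a correlation of -0.057 over 10629 genes, so no pairing was assumed. Over the same genes, *Dhps* flox replicate 2 correlated with *Dhps* cko replicates 1 and 2 at 0.983 and 0.982. With *Dhps* flox replicate 1 it correlated at 0.979, and the 2 *Dhps* cko libraries did so with each other at 0.987. With 2 libraries a genotype and only approximate depth, differences inside an interval that includes 0 were not detectable.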
